A study of Mus musculus with 4 samples.

Results

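Splenic B cells of unimmunized mice were compared between a pool labelled KO, for Il2rb deficiency in B cells, and a pool labelled control (Cre). A cell entered if it had at least 200 genes, under 10% mitochondrial UMIs (unique molecular identifiers, 1 per captured RNA molecule), a leading hashtag with at least 10 UMIs and at least 3 times the next, at least 1 UMI of the B cell receptor component Cd79a, and 0 UMIs of the T cell receptor component Cd3e. This left 2083 of the 15646 barcodes of the series, 982 from the KO pool and 1101 from the control pool. The series holds 2 libraries, 1 of B cells and 1 of CD4+ T cells isolated magnetically from spleen, each with 4 hashtag pools: KO and control, unimmunized (day 0) and 4 days after intraperitoneal sheep red blood cells. The labels give 1 genotype text, C57BL/6NRj CD19Cre/+ Il2rbfl/fl, for KO and Ctrl alike, so the pools were told apart by hashtag name only. The Cre allele is active in the B lineage, and by that text both pools carry CD19Cre/+ and Il2rbfl/fl. The labels state neither the age nor the number of mice in a pool.

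Il2rb encodes the beta chain that the interleukin-2 and interleukin-15 receptors share. It pairs with the common gamma chain Il2rg and, for high-affinity interleukin-2 binding, with Il2ra, and it signals through the kinases Jak1 and Jak3 to Stat5a and Stat5b. The chain is abundant on natural killer cells, memory CD8 T cells and regulatory T cells, whereas resting B cells are not known as a main site of its expression.

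Each side was 1 pool, so no difference was tested. Ratios are KO over control in CPM (summed UMIs of a pool scaled to a common total), and each bracketed range is a 95% interval of counting error only, which does not cover the spread between mice. The pools summed to 5760907 UMIs (KO) and 5939120 UMIs (control), with medians of 4952.5 and 4676 UMIs and 1890.5 and 1827 genes per cell. The median mitochondrial share was 3.40% and 3.37%. The own hashtag had a median of 2215 and 2283 UMIs, and the next 150 in both. The B and T libraries shared 84 barcode sequences. Reads of overlapping genes on opposite strands may not be separable, since the labels do not say whether counting used strand.

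The receptor itself could not be used to check the labels. Il2rb (chr15:78479256-78495271, minus strand, mm10) had 0 UMIs in the KO pool and 0 in the control pool, which by a floor of 3 counts allows a level of up to 0.521 and 0.505 CPM. At day 4 it had 4 UMIs in KO B cells (0.280 CPM) and 11 in control B cells (0.942 CPM). CD4+ T cells, outside the B-lineage deletion, had 79.0 CPM in the KO pool and 86.0 CPM in the control pool at day 0. A difference in Il2rb between unimmunized KO and control B cells was thus not detectable at this depth. The 5-prime tags count the transcript's start, so a deletion of later exons could in any case leave them in place.

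Of the partner chains, Il2rg was lower in the KO pool, 377 against 439 CPM, a ratio of 0.859 (0.811 to 0.910). At day 4 that ratio was 1.13, the opposite direction. Il2ra had 12 UMIs in the KO pool and 20 in the control pool, a ratio of 0.619 (0.276 to 1.33). Of 10 measured genes of the interleukin-2 and interleukin-15 receptor pathway, 5 were higher and 5 lower, with a median log2 ratio of 0.03. Stat5a stood at 21.2 CPM in the KO pool and 17.5 CPM in the control pool, and Stat5b at 35.1 and 37.5 CPM, with intervals that held 1 in both cases. The transducer Stat3 was at 80.4 against 69.7 CPM, 1.15-fold (1.01 to 1.32). Of 9 measured STAT5-responsive genes, 7 were higher and 2 lower, with a median log2 ratio of 0.04; without 3 small clusters described below, 3 of the 9 were higher and the median was -0.09, and Stat3 was at 1.14 (0.995 to 1.31). Among them the survival gene Bcl2 was at 118 against 109 CPM, the cyclin Ccnd2 at 74.6 against 71.1 CPM, and the feedback inhibitor Socs1 at 13.2 against 12.8 CPM. Their feedback partner Cish had 3 UMIs in KO and 4 in control cells. The intervals of these 4 genes all held 1.

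None of the 5 named B cell subsets differed in share beyond counting error, while 3 of the 14 clusters did. Clustering gave 14 clusters, and 6 of them were named from marker genes. The unnamed clusters held many of the cells, such as cluster 1 with 281 and cluster 3 with 234. In clusters 1, 5, 7 and 8 follicular markers ranked first among the B cell types but missed the naming limit, a median log2 of 0.5. The follicular B-like share may thus cover only part of the follicular cells. Follicular B-like cells, the recirculating subset, were 28.5% of KO and 31.5% of control cells, a ratio of 0.905 (0.770 to 1.06). They joined cluster 0, with 147 KO and 220 control cells (0.749, 0.604 to 0.927), and cluster 2, with 133 and 127 (1.17, 0.914 to 1.51). Marginal zone B-like cells, which sit at the blood-facing edge of the white pulp, were 9.98% and 7.81%, a ratio of 1.28 (0.947 to 1.73). Transitional B-like cells, recent bone marrow emigrants, were 8.86% and 9.63%, and B1-like cells numbered 14 and 22. Plasma cell-like cells, which secrete antibody, numbered 5 and 7. The intervals of all 5 ratios held 1. Cluster 7, led by the interferon-induced genes Ifit3, Rsad2 and Ifit1, held 82 KO and 56 control cells, 8.35% and 5.09%, a ratio of 1.64 (1.15 to 2.35).

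A small cluster of cells carrying germinal center markers (such as Gcsam) and dividing-cell markers (Birc5, Pclaf) was left unnamed. It held 15 KO and 6 control cells, a ratio of shares of 2.80 (1.03 to 8.82). Another cluster, led by Ace and Cx3cr1 and carrying monocyte markers, held 8 KO and 2 control cells, 4.48 (0.895 to 43.4). These 2 clusters and the plasma cell-like one together held 43 cells with medians of 9656.5 to 17423 UMIs, so they supply more UMIs per cell than the rest. For the genes they move most, the ratio without these 3 clusters is also given.

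**Figure D1:**
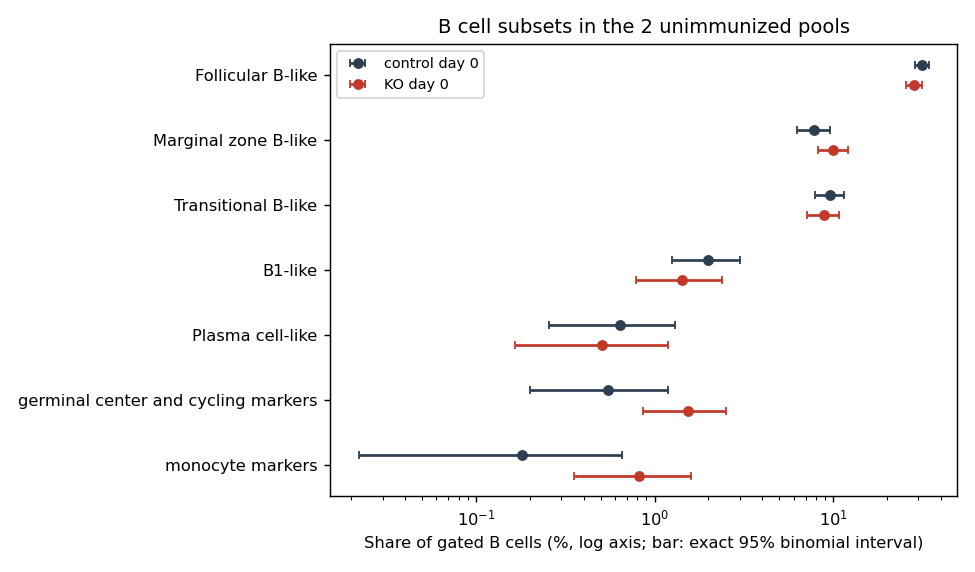
Shares of gated B cells in each pool on a log axis in percent, control in dark blue and KO in red, with exact 95% binomial intervals as bars. The 2 pools overlap for the 5 named subsets, and the clusters with germinal center and monocyte markers hold 15 and 8 KO cells against 6 and 2 control cells.

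Over the transcriptome the 2 pools were close. Of 8069 genes with enough UMIs and cells, 6882 (85.3%) lay within 1.2-fold of each other. At least 1.5-fold differences were counted for 55 genes higher in KO (0.682% of the genes) and 55 lower (0.682%), and only 3 and 2 of these reached 2-fold. The median log2 ratio over all genes was -0.02, and 44.9% of genes were higher in the KO pool. In day 4 B cells 49 of 9256 genes (0.529%) were higher and 52 (0.562%) lower by the same rule, and in unimmunized T cells 47 (0.633%) and 53 (0.714%) of 7426.

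Few of these genes carried their difference to other pools. Of the 55 higher genes, 52 could be judged in day 4 B cells and 1 of them, Psd3, was again at least 1.5-fold higher, against the background of 0.529%. Of the 55 lower genes, 53 could be judged and 1, Gm43305, was again lower (background 0.562%), while Tmem94 was higher by at least 1.5-fold. T cells bearing the same hashtags at day 0 gave 5 of 31 higher genes (2610035D17Rik, Ammecr1l, Fdps, Gm26740 and Trp53inp1) and 2 of 30 lower genes (Gm42031 and Slc15a2), against 0.633% and 0.714%. Without the 3 small clusters, 25 of 43 higher and 43 of 49 lower genes that could still be judged stayed past 1.5-fold, against 0.391% and 0.845% of 7933 genes, which these largely identical cells fix in part.

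**Figure D2:**
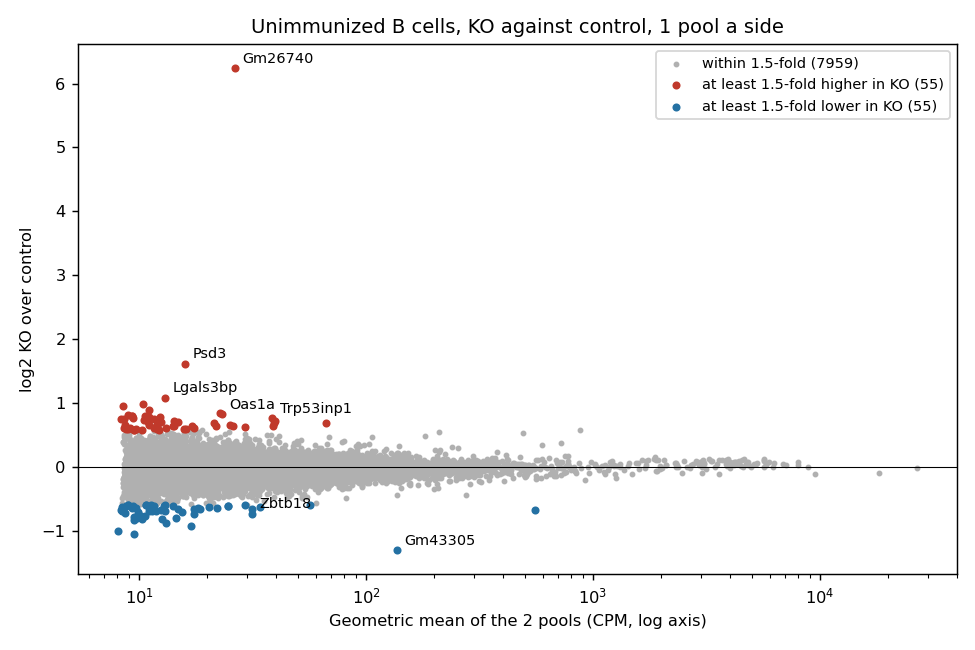
Each point is 1 of the 8069 genes, with the geometric mean level of the 2 pools in CPM on a log x axis and the log2 KO over control ratio on the y axis. The 55 genes at least 1.5-fold higher are red and the 55 lower are blue. Gm26740 and Psd3 stand above the rest and Gm43305 below, while most other colored genes lie at low levels.

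The largest differences belonged to a few genes that were set apart in every large cluster, and in T cells too. Gm26740, a gene annotated as antisense (chr10:22187013-22302835, minus strand, GENCODE vM21) and overlapping Raet1e and H60b, which encode ligands of an activating natural killer receptor, was at 229 CPM in the KO pool and 3.03 CPM in the control pool. That is 1321 against 18 UMIs and a ratio of 75.7 (47.7 to 128). It was higher in 11 of the 11 larger clusters, with 161 to 314 CPM in KO cells and at most 6 UMIs in the control cells of any of them. T cells of the same hashtags had 135 against 3.01 CPM, so the low level followed the control day 0 hashtag in both libraries. At day 4 the 2 B cell pools did not stand apart, at 189 and 179 CPM, and neither did the T cell pools, at 126 and 119 CPM. The control day 0 pool was thus the low one of 4 in each library.

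Psd3, which encodes an exchange factor for the small GTPase Arf6 (chr8:67689082-68212027, minus strand), was at 27.9 CPM in the KO pool and 9.09 CPM in the control pool, 3.07-fold (2.25 to 4.26). Here the KO side was the high one at both times and in both cell types, with 13.9 against 4.45 CPM in day 4 B cells, 5.89 against 1.39 CPM in day 0 T cells and 3.37 against 0.526 CPM in day 4 T cells. It was higher in 11 of 11 larger clusters. Gm15991, annotated as antisense within Psd3 (chr8:67956769-67978051, plus strand), went the other way, at 6.60 against 13.6 CPM, 0.484 (0.320 to 0.719). At day 4 it was at 8.54 and 8.91 CPM.

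Gm43305, a processed transcript without known product (chr14:54292443-54297456, minus strand), was at 87.1 CPM in the KO pool and 214 CPM in the control pool, 0.408 (0.367 to 0.453). It was lower in 11 of 11 larger clusters. Day 4 B cells had 118 against 291 CPM, day 0 T cells 4.33 against 14.6 CPM, and day 4 T cells 16.5 against 52.1 CPM, so the KO pool was the lower one in all 4 comparisons. Gm42031, a long intergenic RNA gene and the most abundant gene past 1.5-fold, was at 437 against 699 CPM, 0.626 (0.596 to 0.658). In day 4 B cells its ratio was 1.09 and in day 0 T cells 0.576. These genes thus also differed in T cells, which lie outside the B lineage. With 1 pool per side, the deletion and the mice in a pool cannot be told apart for any gene here.

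**Figure D3:**
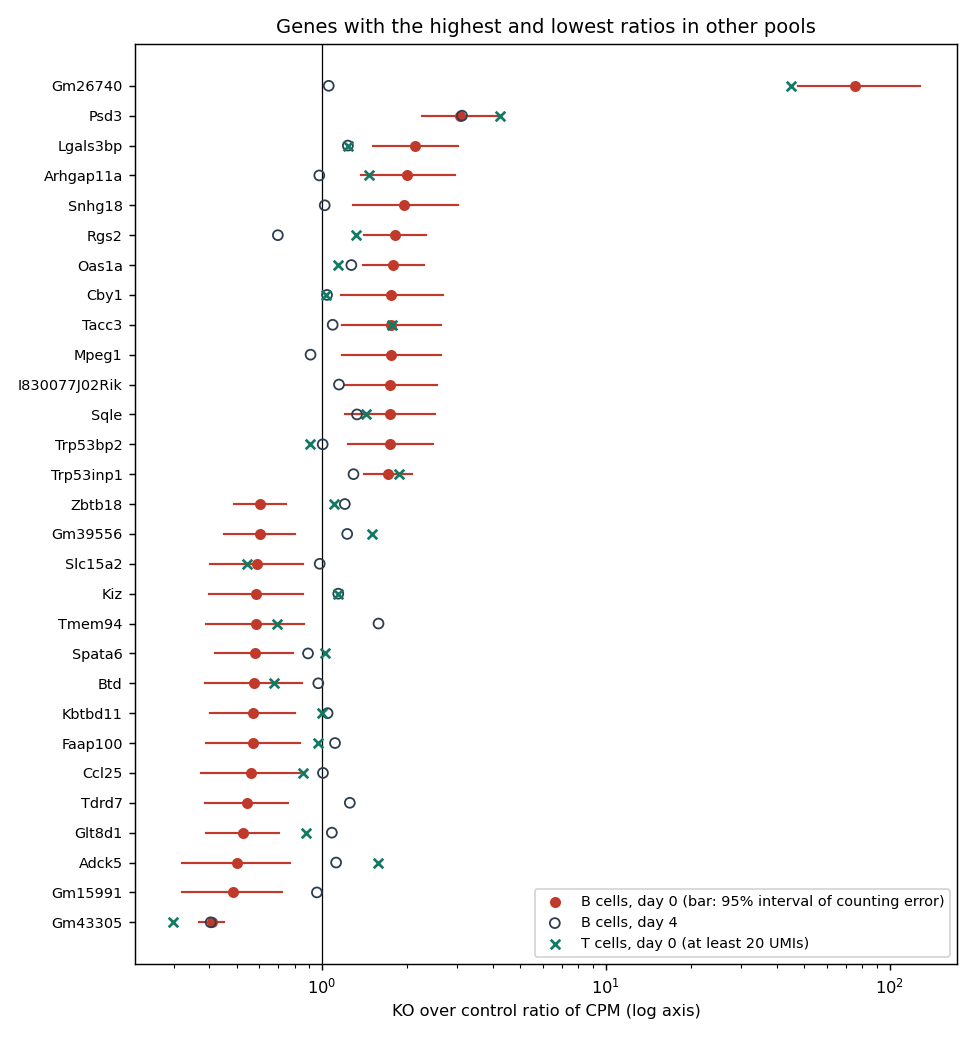
KO over control ratio on a log axis for 14 of the 15 highest and all 15 lowest genes, with day 0 B cells in red and their 95% counting intervals as bars, day 4 B cells as open circles and day 0 T cells as crosses (shown from 20 UMIs). Psd3 and Gm43305 keep their ratio in all 3, Gm26740 in T cells, and most day 4 circles lie near 1.

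Interferon-stimulated genes had the highest median of the lists with at least 5 measured members. Type I interferon signals through a complex that holds Stat2 and Irf9 to genes that restrict viruses, and resting B cells express them at a low tonic level. Of 30 members, 22 were measured, and 20 of these were higher and 2 lower in the KO pool, with a median log2 ratio of 0.30 against -0.02 for all genes. Of the 22, 4 were past 1.5-fold (background 0.682%). These were Oas1a, a sensor of double-stranded RNA, at 30.9 against 17.3 CPM (1.78-fold, 1.39 to 2.29), its relative Oasl2 at 18.4 against 11.1 CPM (1.66-fold, 1.21 to 2.29), the nucleic acid sensor Zbp1 at 49.6 against 30.8 CPM (1.61-fold, 1.33 to 1.95), and the transcription factor Irf7 at 49.0 against 31.1 CPM (1.57-fold, 1.30 to 1.90). Isg15, a ubiquitin-like modifier, was at 34.7 against 27.4 CPM, and Irf9 at 80.2 against 79.1 CPM. Ifi203 was slightly lower, at 351 against 370 CPM. Lgals3bp, a secreted glycoprotein outside the list, was at 18.9 against 8.92 CPM (2.12-fold, with an interval above 1.51).

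Most of these genes were also higher in KO without cluster 7, in day 4 B cells and in day 0 T cells. Without cluster 7, which held a larger share of KO cells, 20 of 22 genes were again higher, with a median of 0.28, and without the 3 small clusters the median was 0.31. The summed level was higher in 8 of the 11 larger clusters, with ratios from 0.921 in cluster 7 itself to 1.24. Weighting both pools to the same mix of clusters gave a median of 0.13. At day 4, 21 of the 22 genes were higher in KO B cells, with a median of 0.25, where 63.8% of all genes were higher and the median of all genes was 0.04. In T cells at day 0, 17 of 20 genes were higher, with a median of 0.18 against -0.02 for all genes. In T cells at day 4, 13 of 22 were higher, with a median of 0.05, where 55.5% of all genes were higher, and Oasl2 was lower at 0.798 (0.644 to 0.990). In day 0 B cells, 8 of 10 interferon-gamma-induced GTPases, which attack vacuoles of intracellular pathogens, were higher (44.9% of all genes), with a median of 0.11. In follicular B-like cells 3 of the 10 were higher, with a median of -0.17. Over all gated cells Irgm1 was at 75.9 against 59.1 CPM (1.28-fold, 1.11 to 1.48). Class I antigen presentation genes were higher in 15 of 21, with a median of 0.10, such as the peptide transporter Tap1 at 150 against 128 CPM (1.17-fold, 1.06 to 1.29).

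The promoter of Oas1a, the measured member with the highest ratio, holds the core letters of the element known for interferon responses, and it is shown to make the group concrete. The 250 bases before its start, from RefSeq on GRCm38.p6, are chr5:120907526-120907775 (minus strand), with GAAA, 2 bases of any kind and GAAA, the core of the interferon-stimulated response element, in capitals; 2 overlapping matches on the gene's own strand begin 20 and 14 bases before the start.
Oas1a: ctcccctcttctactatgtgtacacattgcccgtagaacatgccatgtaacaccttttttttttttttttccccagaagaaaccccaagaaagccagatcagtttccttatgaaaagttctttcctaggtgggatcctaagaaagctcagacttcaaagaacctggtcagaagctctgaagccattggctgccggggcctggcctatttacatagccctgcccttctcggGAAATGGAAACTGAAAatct

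Searched on both strands, these letters occurred in the window of 9 of 17 list members that had at least 100 UMIs and an entry (52.9%), among them Isg15, Stat2, Bst2 and Ifit3. Of all 27025 genes with a window of the same length, 3.46% held them. The windows of Oasl2, Irf7 and Lgals3bp did not hold these letters. A match is a description of the sequence, not of binding.

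Chaperones of the endoplasmic reticulum were lower in the KO pool. These genes form the unfolded protein response, in which the factors Xbp1 and Atf6 raise folding capacity when secretory load grows, as in plasma cells. Of 26 members, 19 passed the rules on UMIs and cells, and of these 5 were higher and 14 lower, with a median log2 ratio of -0.11. None was past 1.5-fold. Over all gated cells 44.9% of all genes were higher, with a median of -0.02. Without the 3 small clusters 8 of the 19 were higher, near that share. Their median was then -0.09, against -0.04 for all genes. Hsp90b1, Creld2, Pdia4, Manf and Sdf2l1 were left out of the 19. Over 10% of their control UMIs came from 1 cell, 12.6% for Hsp90b1 and 29.0% for Creld2. Hsp90b1 (chr10:86690209-86705509, minus strand), which encodes the chaperone of Toll-like receptors and integrins, had 1911 KO and 3482 control UMIs. It stood at 332 CPM in the KO pool and 586 CPM in the control pool, 0.566 (0.535 to 0.598). Plasma cell-like cells carried much of this, with 1694 CPM in 5 KO cells against 7219 CPM in 7 control cells. Without the 3 small clusters it was at 310 against 418 CPM, 0.741 (0.696 to 0.789), and in follicular B-like cells at 232 against 319 CPM, 0.728 (0.630 to 0.840).

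Hsp90b1 was lower in the KO cells of all 11 larger clusters, with ratios between 0.303 and 0.900. Day 4 B cells had 676 against 908 CPM, a ratio of 0.745, and T cells of day 0 had 192 against 211 CPM, 0.913. Hspa5, the main sensor chaperone BiP, was at 237 against 320 CPM (0.740, 0.690 to 0.794), and at 0.866 without the 3 small clusters. The disulfide isomerase Pdia6 was at 117.2 against 159 CPM (0.737, 0.667 to 0.815), and the lectin chaperone Calr at 176 against 223 CPM (0.789, 0.727 to 0.857), both over all gated cells. Summed over the list's measured genes, the ratio was 0.876 over all gated cells and 0.941 without the 3 small clusters. Creld2, a stress-induced isomerase, was at 32.6 against 71.4 CPM (0.457, 0.383 to 0.544), and 0.801 (0.638 to 1.003) without the 3 small clusters, with 56.1% of its control UMIs in plasma cell-like cells. The regulators Xbp1 (86.1 against 92.3 CPM), Atf4 (92.0 against 93.3 CPM) and Atf6 (42.4 against 40.9 CPM) had intervals that held 1. Of the 11 larger clusters, Hspa5 was lower in 10 and Creld2 in 8. The summed level of the list's measured genes was lower in 8 of the 11, with ratios from 0.740 to 1.02. The list's direction returned at day 4, when 19 of the 19 genes were lower in KO B cells, with a median of -0.22, against 36.2% of all genes. In day 0 T cells 6 of 17 were higher (44.9% of all genes), with a median of -0.01 against -0.02 for all genes.

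The promoters of 3 of these chaperone genes show a sequence they share. Each line gives the 250 bases before the start on the gene's own strand (RefSeq, GRCm38.p6), with CCAAT, 9 bases of any kind and CCACG, the element of the endoplasmic reticulum stress response, in capitals on either strand. The windows are chr10:86705445-86705694 (minus strand) for Hsp90b1, chr2:34771840-34772089 (plus strand) for Hspa5 and chr15:88819396-88819645 (plus strand) for Creld2.
Hsp90b1: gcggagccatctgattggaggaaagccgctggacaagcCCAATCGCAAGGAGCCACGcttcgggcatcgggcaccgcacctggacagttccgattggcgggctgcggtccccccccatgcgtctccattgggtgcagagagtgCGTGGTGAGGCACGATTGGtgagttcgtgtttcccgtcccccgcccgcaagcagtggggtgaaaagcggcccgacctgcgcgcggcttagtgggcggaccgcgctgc
Hspa5: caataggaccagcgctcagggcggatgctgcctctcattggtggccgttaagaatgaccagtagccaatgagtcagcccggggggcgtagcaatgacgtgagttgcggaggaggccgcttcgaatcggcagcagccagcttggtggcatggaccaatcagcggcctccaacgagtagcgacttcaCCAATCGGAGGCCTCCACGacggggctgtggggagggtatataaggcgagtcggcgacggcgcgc
Creld2: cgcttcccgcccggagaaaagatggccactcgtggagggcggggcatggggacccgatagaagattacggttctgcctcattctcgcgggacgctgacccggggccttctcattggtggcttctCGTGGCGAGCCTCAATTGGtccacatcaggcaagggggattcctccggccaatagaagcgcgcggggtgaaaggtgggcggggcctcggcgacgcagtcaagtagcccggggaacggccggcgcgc

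Hsp90b1 held 2 matches, 1 on each strand, Hspa5 held 1 on its own strand and Creld2 held 1 on the opposite strand. The letters occurred in 7 of 20 list members with an entry (35%), which also included Calr, Canx, Pdia6 and Syvn1, and in 35 of all 27025 genes with a window (0.130%). Of these 7 genes, Syvn1, a ubiquitin ligase of the same organelle, was not lower, at 96.7 against 90.9 CPM with an interval that held 1.

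**Figure D4:**
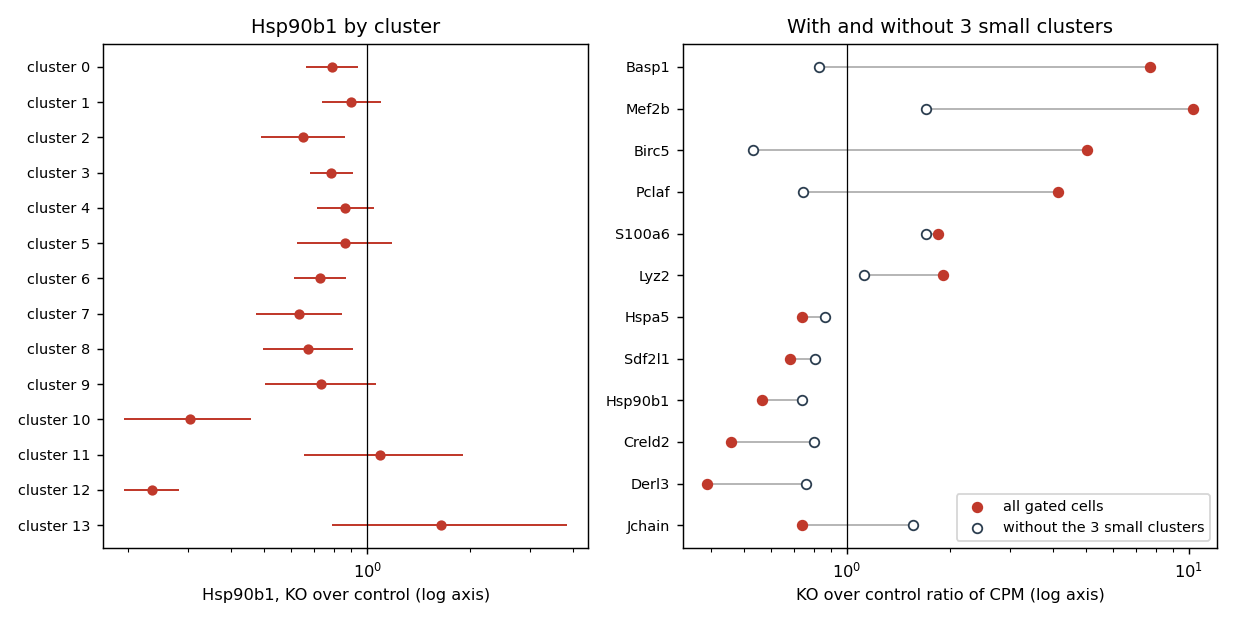
Left, Hsp90b1 KO over control ratio on a log axis in each cluster with 95% counting intervals; clusters 0 to 10 all lie under 1, and cluster 12 is the plasma cell-like one. Right, ratios of 12 genes on a log axis over all gated cells (red) and without the 3 small clusters (open): Birc5, Pclaf and Basp1 fall below 1 and Jchain passes above 1, while Hsp90b1 stays below 1.

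Genes of cholesterol synthesis were higher in the KO pool, in part of the clusters. The pathway is driven by the factor Srebf2 when membrane sterol is low. Of 20 members, 15 were measured, 14 of these were higher and 1 lower, and 6 were past 1.5-fold (background 0.682%), with a median log2 ratio of 0.25. Sqle, the first oxygen-using enzyme of the pathway, was at 14.6 against 8.42 CPM (1.73-fold, 1.21 to 2.51), and Idi1 at 27.1 against 16.8 CPM (1.61-fold, 1.24 to 2.09). Insig1, Msmo1 and Fdps were also among them. Srebf2 itself was at 82.3 against 81.8 CPM. Dhcr7, at 9.72 against 13.3 CPM, was the lower one.

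Without the 3 small clusters the cholesterol median was 0.15, and 12 of 15 genes were higher. Sqle was then at 1.49 (1.02 to 2.19), and of the genes named above as past 1.5-fold only Insig1 was still counted past it. In the cluster with germinal center markers the measured genes summed to 206 KO and 16 control UMIs, a ratio of 4.02 (2.42 to 7.16). The summed level of the measured genes was higher in KO by 1.48-fold (1.247 to 1.75) in cluster 1 and 1.54-fold (1.35 to 1.76) in cluster 3, which carried growth genes such as Srm, and was between 0.875 and 1.201 in the other 9 larger clusters. In follicular B-like cells 6 of 15 genes were higher and the median was -0.03. At day 4, 14 of the 15 genes were higher in KO B cells, with a median of 0.12, where 63.8% of all genes were higher with a median of 0.04. In day 0 T cells 12 of 13 were higher, with a median of 0.23, where 44.9% of all genes were higher with a median of -0.02.

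**Figure D5:**
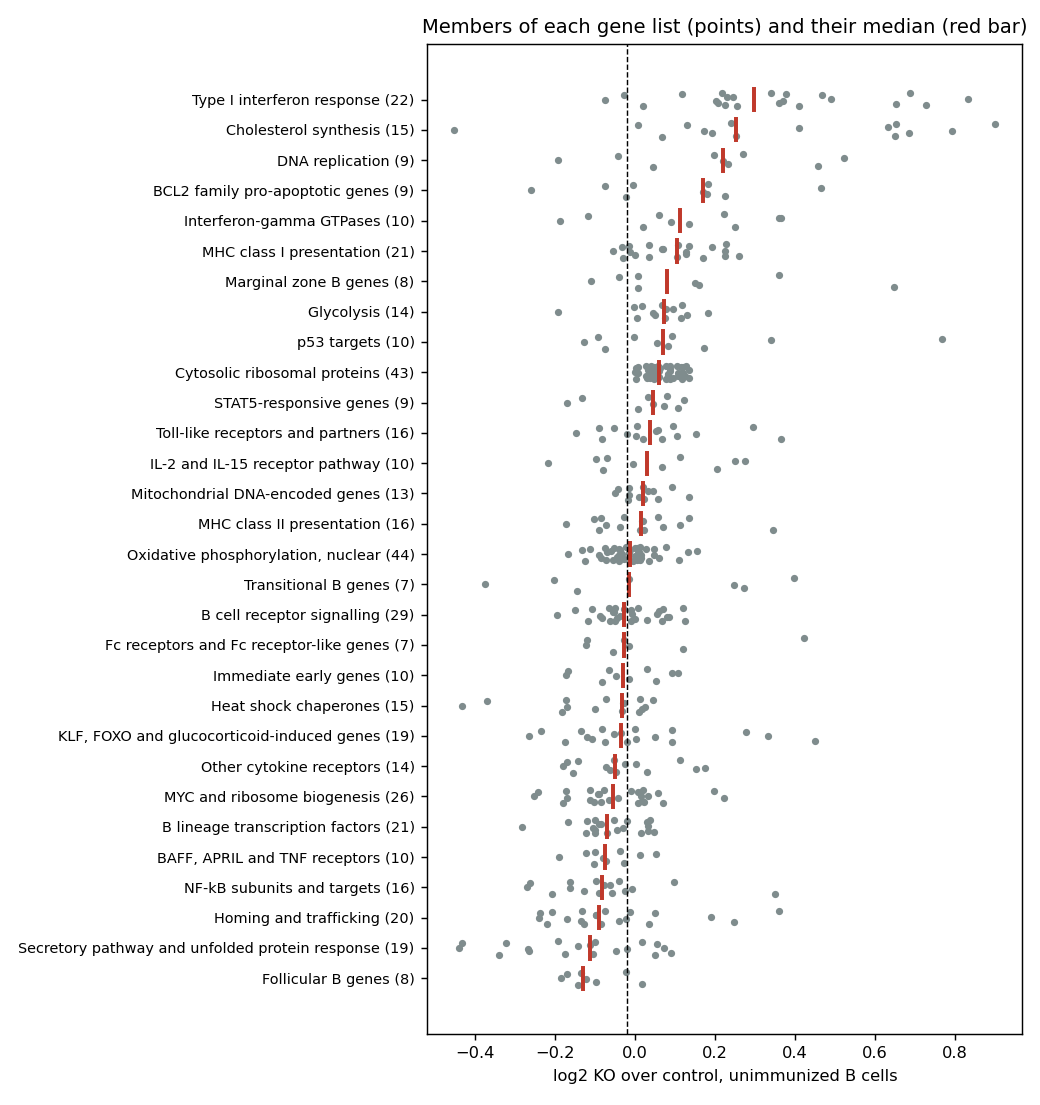
Log2 KO over control ratios of the measured members (points) of each gene list with at least 5 of them, whose number stands in brackets, with the list's median as a red bar and the median of all genes as a dashed line. Type I interferon and cholesterol synthesis genes lie highest, and secretory pathway and follicular B genes lowest.

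Genes of the resting follicular state, and those of several other lists, were slightly lower over all gated cells. For comparison, 44.9% of all genes were higher in the KO pool, with a median log2 ratio of -0.02. Of 8 follicular B genes 1 was higher and 7 lower, with a median log2 ratio of -0.13; the complement regulator Cd55 was at 528 against 600 CPM (0.879, 0.837 to 0.923) and the quiescence factor Klf2 at 644 against 707 CPM (0.910, 0.871 to 0.952). Homing genes were lower in 15 of 20, with a median of -0.09, including Gpr183, the oxysterol receptor that places B cells at the follicle edge, at 133 against 155 CPM (0.858, 0.779 to 0.946). NF-kB subunits and targets were lower in 14 of 16, with a median of -0.08, including Nfkb2, the noncanonical subunit, at 87.1 against 105 CPM (0.829, 0.736 to 0.934). On the list of BAFF, APRIL and TNF receptors 8 of 10 genes were lower. They included Ltb, the gene of a ligand (lymphotoxin beta) and not of a receptor, at 865 against 988 CPM (0.876, 0.843 to 0.909). B lineage transcription factors were lower in 15 of 21, with a median of -0.07. In follicular B-like cells, 3 of 8 follicular genes, 9 of 19 homing genes and 10 of 20 B lineage factors were higher. Their medians there were -0.04, -0.02 and -0.01. NF-kB genes (4 of 16 higher, median -0.09) and BAFF, APRIL and TNF receptor genes (2 of 10 higher, median -0.17) stayed lower there.

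These small shifts were not seen at day 4. There, 8 of 8 follicular and 15 of 16 NF-kB genes were higher in KO B cells, with 63.8% of all genes higher. Nearer that share were BAFF, APRIL and TNF receptor genes (7 of 10), homing genes (13 of 20) and B lineage factors (15 of 21). Cytosolic ribosomal protein genes were higher in 42 of 43, each by little, with a median log2 ratio of 0.06, and in 11 of 11 larger clusters as a sum. At day 4 they were higher in 8 of 43. B cell receptor signalling genes were split, 11 higher and 18 lower of 29, and mitochondrial and nuclear oxidative phosphorylation genes had medians of 0.02 and -0.01.

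Genes of germinal center and dividing cells had high ratios, and their UMIs sat in a few cells. Mef2b, a partner of Bcl6, had 100 UMIs in the KO pool and 10 in the control pool (10.3-fold, 5.38 to 22.2). Mki67, a proliferation marker, had 262 against 85 UMIs (3.18-fold, 2.48 to 4.11), and Birc5 83 against 17 (5.03-fold, 2.96 to 9.05). Summed over the lists, germinal center genes were at 163 against 79.3 CPM, 2.06-fold (1.84 to 2.31), and mitosis genes at 821 against 580 CPM, 1.42-fold (1.35 to 1.48). The cluster with these markers held 15 KO and 6 control cells, and without the 3 small clusters the ratios were 0.533 for Birc5, 1.70 for Mef2b and 1.07 for Mki67, with intervals that held 1. At day 4 the Birc5 and Mef2b ratios were 0.732 and 0.836.

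Antibody genes were likewise set by few cells. Ighg2b, a constant region gene, had 68 UMIs in the KO pool and 1680 in the control pool, and Ighg2c 8 and 634, of which 95.8% and 98.1% of the control UMIs came from 1 cell. Without the 3 small clusters the ratios were 0.791 and 0.622. Jchain, which links antibody polymers, was at 885 against 1194 CPM (0.741, 0.714 to 0.768), and at 1.56 without the 3 small clusters. Pool sums alone do not separate the number of plasma cells from the RNA per cell. Plasma cell-like cells numbered 5 in the KO pool and 7 in the control pool, a ratio of shares of 0.801 (0.200 to 2.93).

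Markers of other cell types were low in both pools. The 10 monocyte and macrophage genes summed to 98.9 CPM in the KO pool and 52.9 CPM in the control pool, 1.87-fold (1.63 to 2.16), mostly Lyz2 at 80.5 and 42.1 CPM, which was at 1.12 without the 3 small clusters. The complement gene C1qa had 2 and 0 UMIs, and Vcan had none in either pool. Dendritic cell genes summed to 88.2 and 65.8 CPM, T cell genes to 24.1 and 18.2 CPM, neutrophil genes to 2.08 and 3.03 CPM and natural killer genes to 1.22 and 3.20 CPM. Erythroid genes were at 19.6 and 42.3 CPM, where 89.4% of the control UMIs of Car1 came from 1 cell. Among genes past 1.5-fold, the myeloid adaptor Tyrobp was at 84.2 against 52.4 CPM (1.61-fold), and at 1.15 (0.966 to 1.36) without the 3 small clusters. The part of these cells in other gene ratios was not tested beyond the values given without the 3 small clusters.

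Of the remaining named genes, Trp53inp1, a p53 target, was at 50.5 against 29.6 CPM (1.70-fold, 1.41 to 2.07), at 1.29 in day 4 B cells and 1.86 in day 0 T cells. Arhgap11a, a GTPase regulator of dividing cells, was at 14.8 against 7.41 CPM (1.99-fold, and 1.56 without the 3 small clusters), and Mpeg1, a pore-forming protein, at 12.3 against 7.07 CPM. Snhg18, Cby1, Tacc3, I830077J02Rik, Trp53bp2 and Rgs2 were also among the 15 highest, with ratios between 1.73 and 1.95. Without the 3 small clusters Tacc3 was at 1.13 (0.694 to 1.83) and Rgs2 at 1.27 (0.948 to 1.70), so that both intervals held 1. On the lower side, the glycosyltransferase family gene Glt8d1 was at 12.3 against 23.4 CPM (0.527, 0.390 to 0.706) and the zinc finger repressor Zbtb18 at 24.5 against 40.4 CPM (0.606, 0.488 to 0.749), with day 4 ratios of 1.08 and 1.203. Adck5, Tdrd7, Ccl25, Kbtbd11, Faap100, Btd, Spata6, Tmem94, Kiz, Slc15a2 and Gm39556 had ratios of at most 0.605. Apart from Psd3 and Gm43305, none of the 15 highest and 15 lowest genes was past 1.5-fold in the same direction in day 4 B cells.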

How the data were processed

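Gene and hashtag UMI counts per cell, deposited by the authors as 10x matrices of 32285 genes, were made with Cell Ranger 5.0.0 on mm10, per the submitters' processing notes; per the labels' protocols the chemistry was single cell 5' V2. From these counts, cells were filtered and assigned to pools as the report states; 6218 of 6339 B-library barcodes passed the gene and mitochondrial limits, 5701 had 1 hashtag and 5520 were gated B cells. Barcodes whose leading hashtag failed the margin over the next were removed as possible doublets, and no doublet caller was run.

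UMIs were summed per pool. Ratio intervals are conditional binomial, level intervals exact Poisson and share intervals exact binomial (scipy 1.17.1), all at 95%; they cover counting error only. A zero was set against a floor of 3 counts. A gene was counted with at least 100 UMIs over both pools, detection in 2% or more of 1 pool's cells, and no single cell holding over 10% of the UMIs in the pool with the higher level; antigen receptor variable genes were left out. Of 8159 genes with 100 UMIs, 90 failed the cell rules. Clusters came from scanpy 1.11.5 (Leiden, leidenalg 0.10.2) on 2000 variable genes of log values scaled to 10000 UMIs, with 30 components, 15 neighbours and resolution 1. Positions came from GENCODE vM21, which matched 32158 gene identifiers. The interval and the fold rule were checked on simulated counts.

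Named genes were the 3 receptor chains, the 15 highest and 15 lowest genes past 1.5-fold whose interval excluded 1, up to 3 members of each of 45 lists in each direction by the same interval, and further members to give values; Lgals3bp's window, Mki67, C1qa, Vcan, Cish, Gm42031 and Tyrobp were named after their values were seen. Some genes these rules chose are not reported here. The members and lists were chosen with earlier results of these data known, and the 1.2-fold limit was set after the ratios were seen.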

Additional observations from a re-analysis of the deposited data

Results flagged for a closer look

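For 6 named genes the KO over control ratio in B cells was past 1.2-fold in opposite directions at day 0 and day 4. Both counting intervals were clear of 1, and with 1 pool per side the difference was not tested. Many named genes were picked by their day 0 ratio, and the share of all genes that meet this rule is not given. At day 4, 63.8% of all genes were higher in KO B cells. Rgs2, a regulator of G protein signalling, had a ratio of 1.80 at day 0 (30.4 against 16.8 CPM) and 0.698 at day 4 (9.87 against 14.1 CPM); without the 3 small clusters its day 0 ratio was 1.27 (0.948 to 1.70). Tmem94, a membrane protein, had 0.585 (7.29 against 12.5 CPM) and 1.58 (12.3 against 7.79 CPM). Hsf1, the heat shock transcription factor, had 0.773 (34.9 against 45.1 CPM) and 1.31 (40.8 against 31.3 CPM). Zbtb18 had 0.606 and 1.203 (27.1 against 22.5 CPM at day 4), and Nfkb2 0.829 and 1.28 (75.8 against 59.4 CPM at day 4). Tifa, an adaptor of NF-kB signalling, had 1.32 (23.95 against 18.2 CPM) and 0.798 (11.8 against 14.8 CPM); without the 3 small clusters its day 0 ratio was 1.23 (0.938 to 1.61).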

How the results depend on the processing

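The count of higher and lower genes moved with the UMI minimum: 136 and 109 genes at 50 UMIs, 9 and 7 at 300 UMIs, and 1328 and 1082 with no minimum. The higher count alone was 33 without the 5% of cells with most UMIs, 24 with each cell thinned to 1500 UMIs, 19 in follicular B-like cells and 33 without the 3 small clusters, an alternative chosen after seeing the data; these 33 apply the rules on UMIs and cells to the remaining cells, while 31 genes pass among those that met the rules in all cells. The plasma cell-like share ratio was 4.49 without the 5% of cells with most UMIs. Without the gate the Il2rb level was 3.59 CPM for control day 0, 2.99 CPM for KO day 0 and 1.94 CPM for KO day 4. Of the alternative values, 47 of these main results stayed within their limits and 14 moved; 452 list medians stayed, 38 moved and 20 reversed; 1640 named gene values stayed, 178 moved and 47 reversed. The cause of the reversals was not tested. With a minimum of 300 UMIs, the log2 value was reversed for BCL2 family pro-apoptotic genes (list median) -0.022. With a minimum of 50 UMIs, the log2 value was reversed for B1 genes (list median) 0.28. With each cell thinned to 1500 UMIs, the log2 value was reversed for Egr1 0.069, Ets1 0.028, I830077J02Rik -0.042, Jchain 0.047, Neil1 -0.056, Sdf2l1 0.10, Ube2c -0.019, DNA replication (list median) -0.092. With each cell weighted equally, the log2 value was reversed for Jchain 0.017, DNA replication (list median) -0.028. With follicular B-like cells only, the log2 value was reversed for Car1 0.32, Cd86 -0.18, Cd9 -1.27, Fam129c -0.079, Fcrl5 -0.42, Fkbp11 0.056, Hbb-bt 0.73, Id3 0.13, Ighd 0.059, Ighm -0.021, Igtp -0.19, Neil1 -0.28, S100a6 -0.45, Selplg 0.063, Tacc3 -0.0026, Traf1 -0.29, BCL2 family pro-apoptotic genes (list median) -0.28, Cholesterol synthesis (list median) -0.026, Mitosis (list median) -0.021. With no gate, the log2 value was reversed for Ahnak 0.077, Ctss 0.02, Rrm1 -0.044, Selplg 0.027, Ube2c -0.25, DNA replication (list median) -0.064, Mitosis (list median) -0.26, B1 genes (list median) 0.12. With no minimum of UMIs or cells, the log2 value was reversed for B1 genes (list median) 0.28. With the same mix of clusters in both pools, the log2 value was reversed for Jchain 0.30, Lyz2 -0.46, BCL2 family pro-apoptotic genes (list median) -0.0048, DNA replication (list median) -0.053, Mitosis (list median) -0.026. With a stricter B cell gate, the log2 value was reversed for Ighm -0.25, BCL2 family pro-apoptotic genes (list median) -0.0082. With the 3 small clusters left out, the log2 value was reversed for Basp1 -0.27, Birc5 -0.91, Ighm -0.021, Jchain 0.65, Neil1 -0.12, Pclaf -0.42, Pdia4 0.014, Ube2c -2.08, DNA replication (list median) -0.096, Mitosis (list median) -0.14. With the 5% of cells with most UMIs left out, the log2 value was reversed for Birc5 -1.96, Fkbp11 0.10, Ighg2b 0.30, Jchain 5.20, Neil1 -0.041, Pclaf -0.74, Ube2c -1.54, DNA replication (list median) -0.044, Mitosis (list median) -0.069, Plasma cell genes (list median) 0.085. No paired analysis was possible because each group is 1 pool and the result comes from no test. Genes near 100 UMIs have wide counting intervals, such as Adck5 (0.320 to 0.769), and a ratio between 2 pools carries no error of mice.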
